A study of Mus musculus with 18 samples.

Results

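Gene expression in gp38+ stromal cells of the mouse salivary gland was compared between glands taken 1 day after an adenovirus was delivered and uninfected glands. The comparison holds 6 of the 18 libraries of the series, chosen by title: 3 titled Day 1 (replicates 13, 14 and 15) and 3 titled Hour 0 (replicates 10, 11 and 12). All mice were wild-type Balb/c, 8 to 12 weeks of age, and each library has a mouse of its own as its subject label. The Day 1 mice had received between 100000000 and 1000000000 plaque-forming units of a replication-defective adenovirus 5 (Ad5) through a cannula in the submandibular duct, a model in which lymphoid aggregates (tertiary lymphoid structures) form in the gland. The Hour 0 mice were uninfected. None of the groups had cannulation alone, and so the effects of the virus and of the procedure cannot be told apart. Cells were sorted on gp38, the surface protein podoplanin, and 10 ng of total RNA went into each library.

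Fibroblasts build and renew the collagen matrix of a tissue, and in lymphoid organs specialised fibroblasts also secrete the chemokines that place lymphocytes. When a cell senses viral nucleic acid or receives an interferon, JAK kinases activate STAT factors, and interferon-stimulated genes are transcribed: enzymes and GTPases that block viruses, and the proteins that process and display peptides on MHC class I. NF-kappaB, a second inducible pathway, drives chemokines, cytokines and acute-phase proteins, and fibroblasts of inflamed tissue are known to use both.

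Total counts were 9836665, 8734113 and 10635986 at Day 1, and 8542729, 7153873 and 10619144 at Hour 0. Across the 9599 genes with a mean of at least 10 CPM (counts scaled to library size) in either group, the log-scale correlation between libraries was 0.939 to 0.975 within Day 1, 0.955 to 0.961 within Hour 0 and 0.643 to 0.705 between the groups, so the libraries separated by group. Day 1 replicate 14 stood apart from the other Day 1 libraries: it correlated with replicate 13 at 0.940, while replicates 13 and 15 correlated at 0.975. Olfactory, vomeronasal and taste receptor genes, a measure of background in stroma, held 0.0398%, 0.0646% and 0.0307% of counts at Day 1 and 0.0696%, 0.102% and 0.0633% at Hour 0, and this background was highest in replicate 14 among the Day 1 libraries. Mitochondrial genes held 3.84 ± 0.658% of Day 1 counts and 6.45 ± 0.847% of Hour 0 counts (SD, n = 3 each). An exact two-sided permutation test gave p = 0.1, the smallest it can give with 3 libraries a group (adjusted p = 0.15 over the 3 shares tested).

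The labelled cell type was checked first. Pdpn, which encodes gp38 and was the sorting marker, had 428, 201 and 385 CPM at Day 1 and 66.7, 54.6 and 60.0 CPM at Hour 0, so it was present in every library and higher in each Day 1 library than in any at Hour 0 (log2 fold change 2.48, adjusted p = 7.76e-10). Pdgfrb, a receptor of fibroblasts and pericytes, had 450, 304 and 565 CPM at Day 1 and 437, 445 and 357 CPM at Hour 0. Its groups overlapped (adjusted p = 0.782). Ptprc, which encodes the pan-leukocyte protein CD45, averaged 2.58 CPM at Day 1 and 7.23 CPM at Hour 0, and markers of other gland cells are given with the losses they accompany.

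Of 27525 genes tested, 2662 (9.67%) rose and 3531 (12.8%) fell at Day 1, which makes 22.5% changed in either direction at an adjusted p under 0.05. Among the 9599 better-expressed genes, 2388 rose and 2150 fell. Over all 27525 genes tested, 97 rose and 356 fell by at least 5 on the log2 scale. These large changes were not limited to better-expressed genes, and so they cannot be set against the counts before them. Receptor genes of the background measure were called too. Olfr1223 fell, with 1 count over the Day 1 libraries and 51 over the Hour 0 libraries, and Olfr721-ps1 rose, with 34 and 0. Among the 15791 genes with at least 10 times the receptor-gene rate in the higher group, 2556 rose and 3320 fell. The part of background in the large falls was not tested. The median log2 fold change over all genes tested was −0.41. Over the 14147 genes with at least 5 CPM in 3 libraries it was −0.04, so the negative median belongs to the genes of low level. Scaling by library totals put it at −0.31. Libraries of the groups did not overlap for 12.8% of genes with Day 1 above and for 20.4% with Day 1 below. Among called genes, 2475 of the 2662 that rose and 3210 of the 3531 that fell had no overlap. Without Day 1 replicate 14 the counts were 2772 higher and 3851 lower. RNA came from all sorted cells together, so fewer cells of a type and less of an RNA per cell cannot be told apart here.

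**Figure D1:**
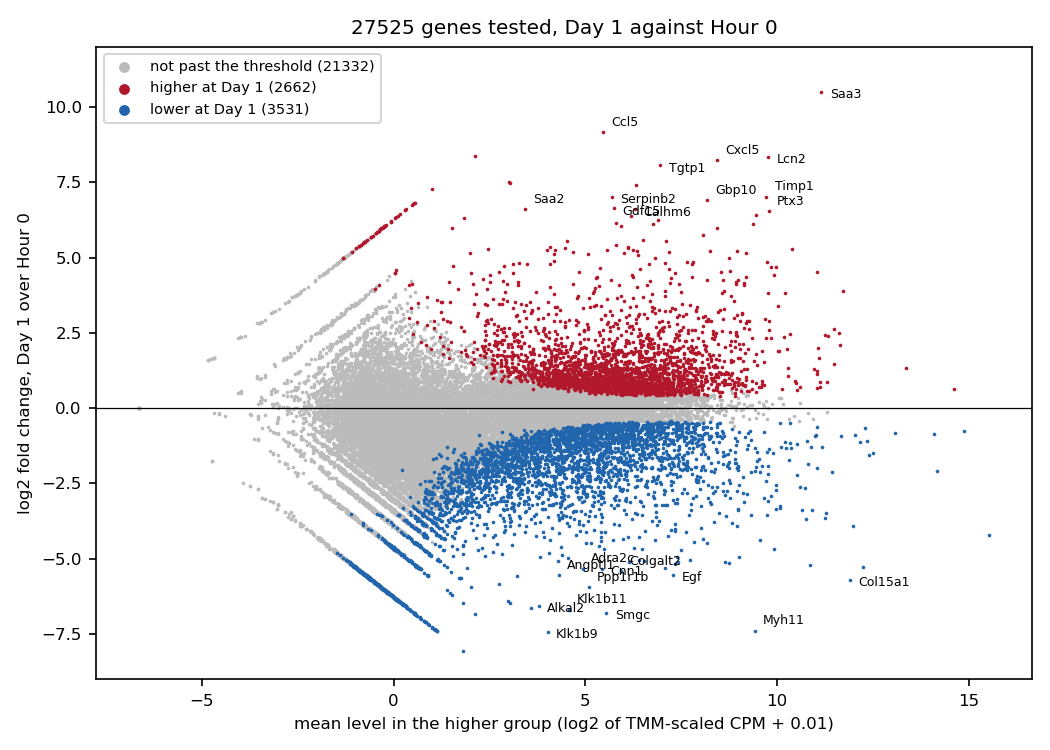
Each point is 1 of the 27525 genes tested, placed by its mean level in the higher group (x axis, log2 of scaled CPM) and its log2 fold change, Day 1 over Hour 0 (y axis). The 2662 genes called higher are red, the 3531 called lower are blue, and the others are grey. The largest rise is that of Saa3, at 10.50.

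The 12 largest rises by the naming rule were Saa3, Ccl5, Lcn2, Cxcl5, Tgtp1, Timp1, Serpinb2, Gbp10, Gdf15, Saa2, Calhm6 and Ptx3. They include secreted acute-phase proteins (Saa3, Saa2, Lcn2, Ptx3), chemokines (Ccl5, Cxcl5), interferon-induced GTPases (Tgtp1, Gbp10), protease inhibitors (Timp1, Serpinb2) and the stress cytokine Gdf15. The 12 largest falls were Klk1b9, Myh11, Smgc, Klk1b11, Alkal2, Ppp1r1b, Col15a1, Angptl1, Egf, Colgalt2, Cnn1 and Adra2c. Klk1b9, Klk1b11, Smgc and Egf encode products of salivary duct and acinar cells, Myh11 and Cnn1 encode contractile proteins of smooth muscle, and Col15a1 encodes a basement-membrane collagen. Genes with near-identical copies, such as Tgtp1, Saa2, Gbp10 and the Klk1b family, carry counts that may be split or shared among copies, and their values are uncertain for that reason.

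Gene lists by function are described by how many of their tested members passed the test. Each count can be read against the 9.67% of all genes that rose, the 12.8% that fell and the median of −0.41. The lists in which the largest share rose were those of MHC class I presentation, the immunoproteasome, the core proteasome, ribosome biogenesis, the immunity-related GTPases, the antiviral PARPs and the CXCR3 ligands, where every tested member rose. At the other end every tested member of the hedgehog and glial lists fell.

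**Figure D2:**
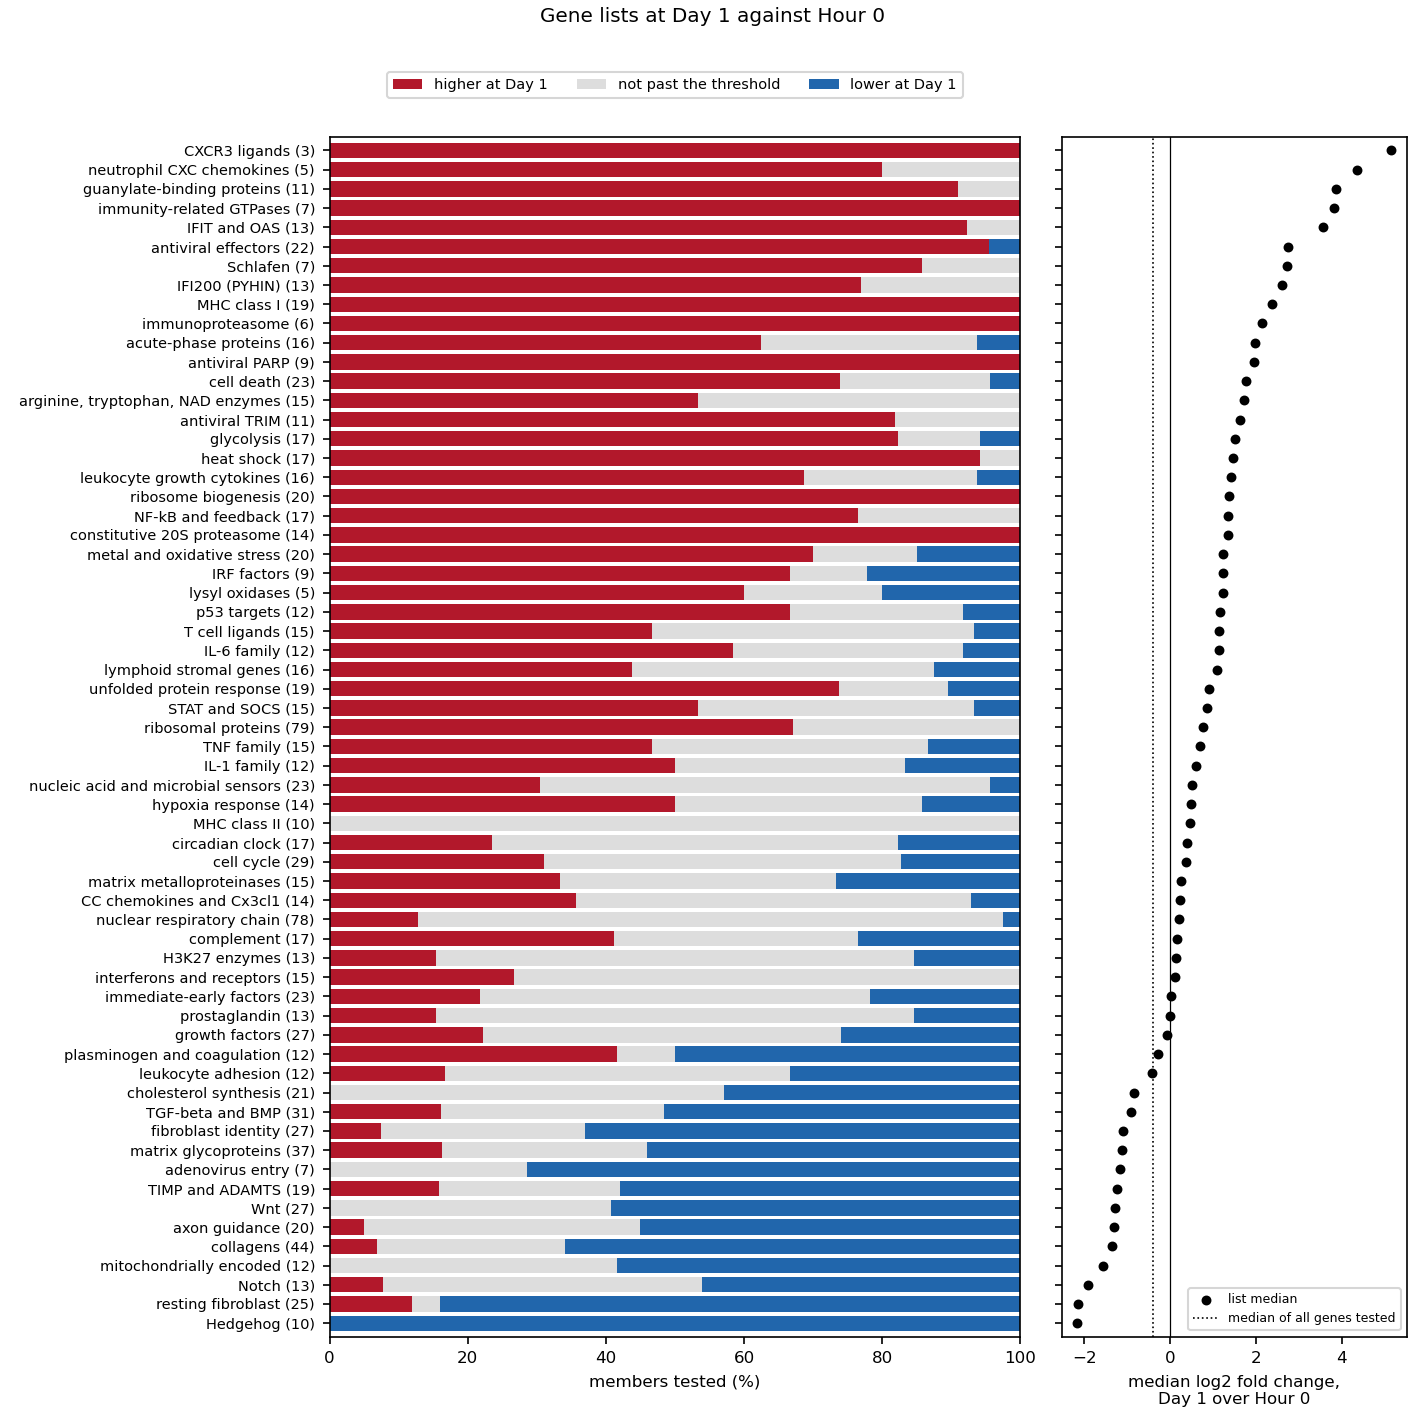
Left: for each gene list (number of tested members in brackets), the percentage of members higher at Day 1 (red), not past the threshold (grey) and lower at Day 1 (blue). Right: the list's median log2 fold change, Day 1 over Hour 0, with a dotted line at the median of all genes tested (−0.41). Antiviral, class I, proteasome and ribosome-biogenesis lists lie on the red side, the MHC class II list is grey throughout, and hedgehog, resting fibroblast, Wnt and collagen lists on the blue side. Cell-type marker lists are not drawn here.

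Most antiviral genes rose. Of 13 tested members of the IFIT and OAS list, 12 rose and none fell (median log2 fold change 3.56), and of 22 other antiviral effectors 21 rose and 1 fell (median 2.76). Oas3, which makes the 2-5A signal that activates RNase L, had 108, 115 and 105 CPM at Day 1, against 1.35, 2.83 and 0.662 CPM at Hour 0. Isg15, a ubiquitin-like modifier and secreted cytokine, had 246, 162 and 200 CPM at Day 1, against 7.84, 3.62 and 9.27 CPM at Hour 0. In both, the lowest Day 1 library lay far above the highest Hour 0 library, with log2 fold changes of 6.13 ± 0.42 (SE, adjusted p = 2.73e-12) for Oas3 and 4.85 ± 0.29 (adjusted p = 1.56e-13) for Isg15.

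Oas3 lies at chr5:120753098-120777661 and Isg15 at chr4:156199424-156200818, both on the minus strand of GRCm38. Their promoters are shown here because their letters carry the interferon-stimulated response element (ISRE), the DNA element bound by IRF factors and by the STAT complex that type I interferon activates. Windows run from 250 bases before to 50 bases after the start (RefSeq, GRCm38.p6) and are written 5′ to 3′ on the gene's strand. Capitals mark GAAANNGAAA, searched on both strands. The Oas3 window is chr5:120777610-120777909, and its match begins 75 bases before the start. The Isg15 window is chr4:156200769-156201068, and it holds 3 overlapping matches that begin 78, 72 and 66 bases before the start.
Oas3: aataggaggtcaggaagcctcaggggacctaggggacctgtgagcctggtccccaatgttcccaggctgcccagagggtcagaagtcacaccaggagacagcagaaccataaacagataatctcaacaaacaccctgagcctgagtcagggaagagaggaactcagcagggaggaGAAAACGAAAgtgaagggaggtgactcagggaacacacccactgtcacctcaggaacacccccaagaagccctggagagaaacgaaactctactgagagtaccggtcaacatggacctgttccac
Isg15: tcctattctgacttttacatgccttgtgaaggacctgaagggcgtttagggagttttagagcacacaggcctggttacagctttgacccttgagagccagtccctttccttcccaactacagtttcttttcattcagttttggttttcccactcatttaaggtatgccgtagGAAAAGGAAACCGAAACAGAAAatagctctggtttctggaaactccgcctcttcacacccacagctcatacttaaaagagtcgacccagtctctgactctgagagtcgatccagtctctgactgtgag

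Among the other effectors, Ifi44 averaged 220 CPM at Day 1 against 7.83 CPM at Hour 0 (log2 fold change 4.80), and Bst2 (tetherin, which holds budding virus at the membrane) averaged 437 CPM at Day 1 against 18.5 CPM at Hour 0 (4.56). Zbp1, a sensor of left-handed nucleic acid that can start necroptosis, had 428, 442 and 408 CPM in Day 1 libraries and 5.90, 15.4 and 18.5 CPM in Hour 0 libraries. Its 3 Day 1 libraries lay close together. Rsad2 (viperin) averaged 568 CPM at Day 1 and 31.7 CPM at Hour 0, and Mx1 averaged 291 CPM at Day 1 and 15.1 CPM at Hour 0. Ifitm1, which blocks virus entry at membranes, rose by 5.37 on the log2 scale. The member that fell was Ifi27, with 22.1 CPM at Day 1 and 50.3 CPM at Hour 0 (log2 fold change −1.19, adjusted p = 4.76e-05).

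Interferon-induced GTPases rose. Of 11 guanylate-binding proteins 10 rose (median 3.88), Gbp2b being the exception, and all 7 immunity-related GTPases tested rose (median 3.82). These proteins attack the membranes around intracellular microbes. Gbp2 had 1628, 3396 and 1248 CPM at Day 1, against 78.9, 79.2 and 113 CPM at Hour 0 (log2 fold change 4.53 ± 0.34, adjusted p = 1.89e-11). Gbp10 had 201, 520 and 149 CPM in Day 1 libraries and 1.84, 3.62 and 1.90 CPM in Hour 0 libraries, and Igtp had 466, 852 and 372 CPM in Day 1 libraries and 35.3, 36.8 and 27.8 CPM in Hour 0 libraries. In all 3 genes replicate 14 held the highest value, above both replicates 13 and 15. Calhm6, a channel protein known to be induced by interferon-gamma in macrophages, showed the same order, with 66.0, 136 and 33.0 CPM at Day 1 and 0.774, 0.453 and 1.08 CPM at Hour 0.

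Gbp2 lies at chr3:142620602-142638008 on the plus strand, and its promoter window is chr3:142620413-142620712. It is shown because it holds both motifs searched for the interferon and NF-kappaB pathways, each matched on the reverse strand. The ISRE match begins 59 bases before the start, and the kappaB match (GGGANNTTCC) begins 7 bases after it.
Gbp2: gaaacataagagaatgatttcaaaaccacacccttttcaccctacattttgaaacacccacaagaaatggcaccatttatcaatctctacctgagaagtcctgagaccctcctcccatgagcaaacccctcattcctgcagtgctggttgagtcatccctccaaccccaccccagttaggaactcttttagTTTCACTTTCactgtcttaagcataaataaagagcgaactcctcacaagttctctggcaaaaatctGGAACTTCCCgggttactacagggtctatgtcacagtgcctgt

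Smaller families followed. In the antiviral TRIM list 9 of 11 rose, led among those described by Trim30a (237 ± 22.5 CPM at Day 1 and 24.8 ± 6.25 CPM at Hour 0) and Trim30d (120 ± 9.83 CPM at Day 1 and 12.5 ± 2.99 CPM at Hour 0; SD, n = 3 each). Of 7 schlafen genes 6 rose. Slfn8 averaged 186 CPM at Day 1 and 22.3 CPM at Hour 0, whereas Slfn5 averaged 351 CPM at Day 1 and 368 CPM at Hour 0 (adjusted p = 0.811). Of 13 PYHIN genes, which encode DNA-binding inflammasome and interferon regulators, 10 rose, and Ifi206 had 143, 78.5 and 136 CPM at Day 1 against 0.871, 3.17 and 0.827 CPM at Hour 0 (log2 fold change 6.25). All 9 antiviral PARP genes rose by a median of 1.95. Parp14 averaged 552 CPM at Day 1 and 125 CPM at Hour 0.

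Transcription factors known to control these genes rose in part. Irf7, the factor that amplifies interferon-alpha production, had 1118, 805 and 978 CPM at Day 1, against 42.9, 48.7 and 44.6 CPM at Hour 0 (log2 fold change 4.41 ± 0.23, adjusted p = 1.26e-14). The Hour 0 libraries were nearly equal and the Day 1 libraries were all far above them. In the IRF list 6 of 9 rose: Irf2, Irf5, Irf1 and Irf9 rose by 1.69, 2.02, 1.09 and 1.23 on the log2 scale, whereas Irf4 fell by 1.24, and Irf3 averaged 33.2 CPM at Day 1 and 36.0 CPM at Hour 0. The call for Irf4 was lost on leaving out Day 1 replicate 13 or 15 or any Hour 0 library. Library totals, no filter on low counts and the fits of fewer groups lost it too. Irf8 passed the test (1.34, adjusted p = 0.0187) on the strength of replicate 14. Its values were 23.1, 117 and 21.7 CPM at Day 1 and 12.5, 22.1 and 29.3 CPM at Hour 0. The Irf8 call was lost without Day 1 replicate 14 or Hour 0 replicate 10, with DESeq2 or limma-voom, and in the fit of only the groups compared. Stat2 averaged 479 CPM at Day 1 against 102 CPM at Hour 0. Of the SOCS feedback inhibitors Socs1 averaged 52.8 CPM at Day 1 and 12.6 CPM at Hour 0, and Socs3 averaged 480 CPM at Day 1 and 462 CPM at Hour 0 (adjusted p = 0.879).

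Interferons themselves were near the limit of detection. Ifnb1 had 5.32, 0.174 and 2.84 CPM at Day 1 and 0.193, 0.227 and 0.662 CPM at Hour 0, with an overlap through replicate 14 (adjusted p = 0.0671), and it passed the test without replicate 14 (log2 fold change 3.42, adjusted p = 0.0174). Ifng had 0, 0.348 and 0.150 CPM at Day 1 and no count at Hour 0 (adjusted p = 0.14). Among the receptors, Ifnar2 averaged 111 CPM at Day 1 and 44.1 CPM at Hour 0 (log2 fold change 1.32) and Ifngr2 averaged 59.1 CPM at Day 1 and 35.1 CPM at Hour 0 (0.75). Their partner chains did not pass the test, with Ifnar1 at 49.8 CPM at Day 1 and 48.1 CPM at Hour 0 (adjusted p = 0.865) and Ifngr1 at 190 CPM at Day 1 and 255 CPM at Hour 0 (adjusted p = 0.139). In the list of nucleic-acid and microbial sensors 7 of 23 rose and 1 fell: the RNA helicases Dhx58 (80.4 CPM at Day 1, 11.4 CPM at Hour 0), Ddx58 (228 CPM at Day 1, 64.7 CPM at Hour 0) and Ifih1 (190 CPM at Day 1, 54.4 CPM at Hour 0) were among those that rose. The adaptor Mavs was the member that fell, with 18.8 CPM at Day 1 and 35.1 CPM at Hour 0 (adjusted p = 0.0293, a call lost without any one of the Day 1 libraries or without Hour 0 replicate 11), and the surface receptors Tlr2 (11.3 CPM at Day 1 and 9.96 CPM at Hour 0) and Tlr4 (17.9 CPM at Day 1 and 22.7 CPM at Hour 0) did not pass.

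Class I antigen presentation rose throughout. All 19 tested members of the MHC class I list rose (median 2.38), as did all 6 immunoproteasome genes (median 2.15) and all 14 core proteasome subunits (median 1.34). H2-K1, a classical class I heavy chain, had 3167, 3433 and 2861 CPM at Day 1, against 429, 487 and 776 CPM at Hour 0 (log2 fold change 2.48 ± 0.21, adjusted p = 2.21e-10). B2m, the shared light chain, averaged 2148 CPM at Day 1 against 535 CPM at Hour 0, the peptide transporter Tap1 averaged 495 CPM at Day 1 against 58.0 CPM at Hour 0, and Nlrc5, the class I transactivator, averaged 376 CPM at Day 1 against 26.5 CPM at Hour 0. The inducible proteasome subunit Psmb8 had 290, 322 and 244 CPM at Day 1 and 29.4, 29.0 and 55.4 CPM at Hour 0 (2.91). Its constitutive counterpart Psmb5 rose less, with 25.4 ± 10.7 CPM at Day 1 and 9.01 ± 3.39 CPM at Hour 0 (SD, n = 3 each; log2 fold change 1.49).

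Class II presentation did not follow. None of the 10 tested MHC class II genes passed in either direction, and the outcome rested on single libraries: 3 members were lower without Day 1 replicate 14, and 2 were higher without Day 1 replicate 13. Cd74, the invariant chain, had 17.5, 77.1 and 16.0 CPM at Day 1 and 14.0, 21.2 and 38.8 CPM at Hour 0 (adjusted p = 0.35), and it passed as higher with no filter on low counts (0.73, adjusted p = 0.00427). Ciita, the class II transactivator, had 1.21, 13.1 and 0.897 CPM at Day 1 and 3.87, 6.12 and 8.52 CPM at Hour 0 (adjusted p = 0.778), and it passed as lower without Day 1 replicate 14 (−2.54, adjusted p = 0.000865). In both genes replicate 14 was the highest of the 6 libraries and the other Day 1 libraries were at or below the middle of the Hour 0 values. Among ligands read by T cells, 7 of 15 rose and 1 fell. Cd274, which encodes the inhibitory ligand PD-L1, had 283, 387 and 245 CPM at Day 1, against 5.22, 6.57 and 12.4 CPM at Hour 0 (log2 fold change 5.22, adjusted p = 1.75e-12), and the costimulatory ligand Cd80 averaged 10.6 CPM at Day 1 against 1.11 CPM at Hour 0. Vsir, another inhibitory ligand, was the member that fell, with 7.67 CPM at Day 1 and 30.0 CPM at Hour 0.

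Chemokines of several classes rose. The 3 ligands of CXCR3, which recruit T and NK cells, all rose (median 5.16), as did 4 of 5 neutrophil-attracting CXC chemokines (median 4.35) and 5 of 14 genes in the list of CC chemokines and Cx3cl1, where 1 fell. Cxcl10 had 671, 570 and 510 CPM at Day 1, against 9.77, 22.7 and 16.8 CPM at Hour 0 (log2 fold change 5.16 ± 0.34, adjusted p = 1.02e-12). Cxcl9 had 417, 1261 and 303 CPM at Day 1, against 3.97, 5.66 and 18.6 CPM at Hour 0 (6.10 ± 0.51, adjusted p = 1.42e-10). Replicate 14 was by far the highest for Cxcl9 and stood between the others for Cxcl10. Among the neutrophil chemokines the libraries stood in another order. Cxcl5 had 501, 156 and 373 CPM at Day 1, against 0.387, 1.47 and 1.49 CPM at Hour 0 (8.25 ± 0.45, adjusted p = 3.34e-14), and Cxcl2 had 72.2, 6.88 and 39.8 CPM at Day 1, against 1.35, 0.113 and 3.97 CPM at Hour 0 (4.35 ± 0.63, adjusted p = 3.57e-06), with replicate 14 the lowest Day 1 library in each.

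Promoters of Cxcl10 and Cxcl2 are printed to set these chemokine classes side by side. The Cxcl10 window, chr5:92348840-92349139 on the minus strand, holds an ISRE that begins 213 bases before the start and a kappaB match that begins 159 bases before it. The Cxcl2 window, chr5:90903649-90903948 on the plus strand, holds 2 overlapping kappaB matches, on opposite strands, that begin 97 and 96 bases before the start, and no ISRE match.
Cxcl10: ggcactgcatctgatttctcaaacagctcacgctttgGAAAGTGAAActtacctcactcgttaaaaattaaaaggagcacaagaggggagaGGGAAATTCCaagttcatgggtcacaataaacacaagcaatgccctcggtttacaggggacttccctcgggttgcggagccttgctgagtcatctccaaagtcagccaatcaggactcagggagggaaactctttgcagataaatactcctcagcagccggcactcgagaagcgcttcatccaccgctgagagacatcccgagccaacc
Cxcl2: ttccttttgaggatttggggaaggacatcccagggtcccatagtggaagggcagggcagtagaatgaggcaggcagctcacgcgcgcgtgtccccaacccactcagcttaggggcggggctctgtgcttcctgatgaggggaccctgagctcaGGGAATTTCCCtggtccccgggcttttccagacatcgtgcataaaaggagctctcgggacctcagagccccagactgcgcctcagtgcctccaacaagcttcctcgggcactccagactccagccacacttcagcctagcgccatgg

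Among the CC chemokines, Ccl2, which attracts monocytes, had 1125, 607 and 839 CPM at Day 1, against 15.1, 13.8 and 58.6 CPM at Hour 0 (log2 fold change 4.87, adjusted p = 3.01e-10). Ccl7, with the same role, had 432, 294 and 306 CPM at Day 1, against 3.10, 4.19 and 8.77 CPM at Hour 0 (5.98). Neither gene's groups overlapped. Ccl5, which attracts T cells and monocytes, had 1666 counts over the Day 1 libraries and 2 counts over the Hour 0 libraries, a ratio of 698 with a 95% counting interval of 193 to 5771. Ccl8 averaged 45.8 CPM at Day 1 against 5.41 CPM at Hour 0, and Ccl11 (eotaxin) averaged 582 CPM at Day 1 against 307 CPM at Hour 0.

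More lymphoid stromal genes rose than fell. In that list of 16 tested genes 7 rose and 2 fell (median 1.08), and the share that fell was near the 12.8% of all genes. Among the 7 was Pdpn, which encodes the sorting marker. Without Day 1 replicate 14 the number higher was 5, and in several alternatives the number lower was 1. Cxcl13, which draws B cells into follicles, had 589, 567 and 327 CPM at Day 1, against 16.6, 13.4 and 10.1 CPM at Hour 0 (log2 fold change 5.21 ± 0.34, adjusted p = 1.02e-12). Cxcl12, the ligand of CXCR4 and a product of resting stroma, had 58.0, 73.6 and 74.5 CPM at Day 1, against 423, 330 and 409 CPM at Hour 0 (−2.50 ± 0.20, adjusted p = 9.72e-11). Both differences left no overlap, and they ran in opposite directions. Ccl19, a T cell zone chemokine, was low, with 3.54, 9.92 and 2.24 CPM at Day 1 and 0.290, 1.25 and 1.08 CPM at Hour 0 (2.57, adjusted p = 0.0317). Its call was lost without Day 1 replicate 14, Hour 0 replicate 10 or Hour 0 replicate 12, and with limma-voom. The enzymes that make the oxysterol guidance cue for B and dendritic cells rose: Ch25h had 144, 71.4 and 123 CPM at Day 1 and 2.81, 0.680 and 6.78 CPM at Hour 0 (4.98), and Cyp7b1 had 58.3, 49.6 and 48.4 CPM at Day 1 and 6.67, 6.34 and 5.13 CPM at Hour 0 (3.11). Of the adhesion genes 2 of 12 rose and 4 fell, with 2 lower when Day 1 replicate 13 or Hour 0 replicate 12 was left out. Icam1 averaged 313 CPM at Day 1 and 100 CPM at Hour 0, and Vcam1 averaged 100 CPM at Day 1 and 80.6 CPM at Hour 0 without passing the test.

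Cytokines of the IL-6 family rose in 7 of 12 cases and fell in 1. Lif had 151, 44.5 and 139 CPM at Day 1, against 3.10, 6.23 and 23.1 CPM at Hour 0 (log2 fold change 3.34). Il6 had 170, 80.6 and 141 CPM at Day 1, against 11.5, 7.14 and 47.2 CPM at Hour 0 (2.56 ± 0.48, adjusted p = 0.000164). For each, all Day 1 libraries lay above all Hour 0 libraries and replicate 14 was the lowest Day 1 library. The receptor chain Il6ra averaged 49.3 CPM at Day 1 against 9.98 CPM at Hour 0, while Il11ra1 averaged 96.8 CPM at Day 1 against 295 CPM at Hour 0. In the IL-1 list 6 of 12 rose and 2 fell, and Il1rl1, the receptor for IL-33, had 94.1, 7.40 and 142 CPM at Day 1 and 1.35, 2.72 and 2.40 CPM at Hour 0 (5.23). Among leukocyte growth factors 11 of 16 rose and 1 fell: the granulocyte and macrophage factor Csf2 averaged 22.2 CPM at Day 1 against 0.570 CPM at Hour 0, and Tslp, an alarmin for dendritic cells, averaged 47.3 CPM at Day 1 against 3.84 CPM at Hour 0.

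Genes of the NF-kappaB pathway rose in 13 of 17 cases with no fall (median 1.35). They included the inhibitors Tnfaip3 (312 CPM at Day 1, 41.7 CPM at Hour 0) and Nfkbia (290 CPM at Day 1, 94.0 CPM at Hour 0) and the subunits Nfkb2 (207 CPM at Day 1, 81.0 CPM at Hour 0) and Relb (68.0 CPM at Day 1, 27.8 CPM at Hour 0). In the TNF family list 7 of 15 rose and 2 fell. The death ligand Tnfsf10 (TRAIL) averaged 64.6 CPM at Day 1 and 5.36 CPM at Hour 0, and the death receptor Fas averaged 50.2 CPM at Day 1 and 8.36 CPM at Hour 0.

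Several of the largest rises were in acute-phase proteins. In that list 10 of 16 rose and 1 fell (median 1.97). Saa3, the serum amyloid A made outside the liver, had 3194, 2216 and 1424 CPM at Day 1, against 0.871, 0.793 and 2.81 CPM at Hour 0. Lcn2, which withholds iron from bacteria, had 962, 976 and 691 CPM at Day 1, against 1.35, 1.59 and 4.80 CPM at Hour 0 (log2 fold change 8.35 ± 0.50, adjusted p = 1.54e-13). Ptx3, a soluble pattern-recognition protein, had 1181, 439 and 1031 CPM at Day 1, against 2.32, 5.66 and 19.9 CPM at Hour 0 (6.54 ± 0.56, adjusted p = 2.43e-10). Hour 0 replicate 12 was the highest Hour 0 library for all 3 genes, and the lowest Day 1 library still exceeded it many-fold. Serpina3n, an inhibitor of serine proteases, averaged 998 CPM at Day 1 against 38.4 CPM at Hour 0 (4.70).

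Saa3 lies at chr7:46711998-46715700 on the minus strand. Its promoter window, chr7:46715627-46715926, is shown as that of the gene with the largest rise, and it holds 1 ISRE match, which begins 125 bases before the start, and no kappaB match of the letters searched.
Saa3: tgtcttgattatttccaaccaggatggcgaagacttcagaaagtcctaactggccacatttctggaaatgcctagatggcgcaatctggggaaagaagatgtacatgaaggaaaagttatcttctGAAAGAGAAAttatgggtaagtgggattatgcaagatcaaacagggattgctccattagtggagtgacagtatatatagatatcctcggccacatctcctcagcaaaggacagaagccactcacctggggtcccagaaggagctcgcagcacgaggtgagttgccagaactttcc

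Complement genes moved in both directions, with 7 of 17 higher and 4 lower. C3, the central component, had 8629, 16429 and 6745 CPM at Day 1, against 3967, 3531 and 5084 CPM at Hour 0 (log2 fold change 1.34, adjusted p = 0.000358). Cfb, its partner in the alternative pathway convertase, had 237, 227 and 200 CPM at Day 1, against 14.6, 10.3 and 7.78 CPM at Hour 0 (4.34, adjusted p = 4.05e-10). The regulator Cd55, which speeds the decay of the convertases, went the other way. It averaged 9.82 CPM at Day 1 and 29.1 CPM at Hour 0 (−1.57).

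**Figure D3:**
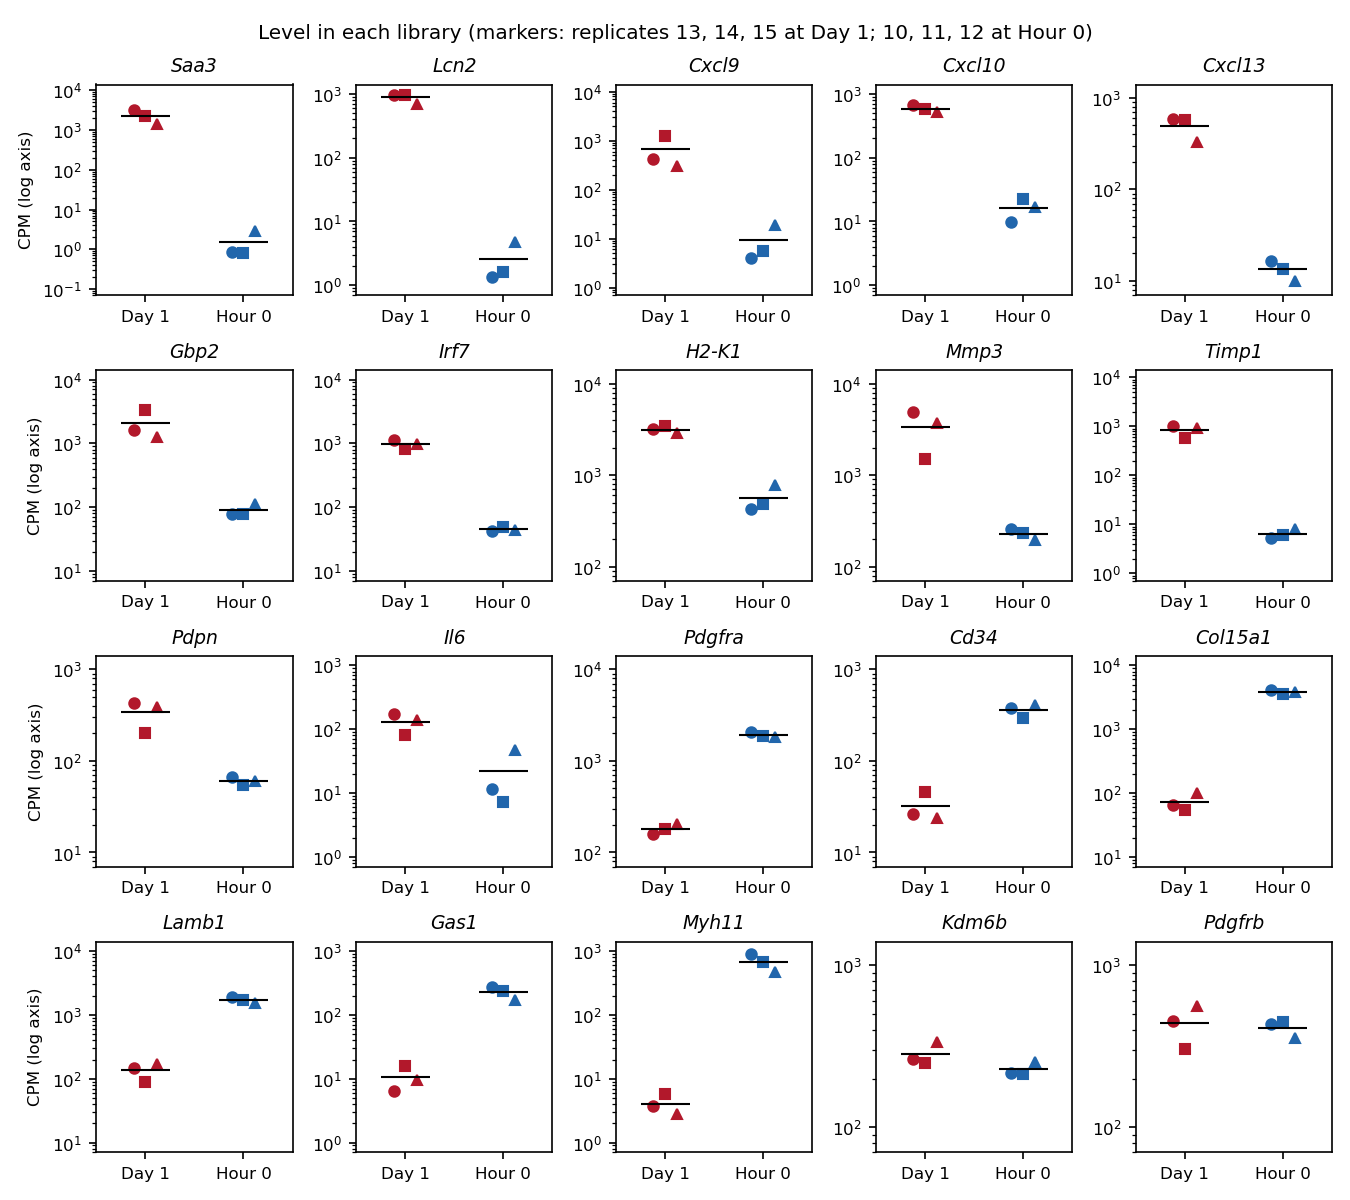
Level of selected genes in each library, in CPM on a log axis, with Day 1 on the left (red), Hour 0 on the right (blue) and the mean as a line. The markers give replicates 13, 14 and 15 at Day 1 and 10, 11 and 12 at Hour 0. Saa3, at 1424 to 3194 CPM in Day 1 libraries and 0.793 to 2.81 CPM in Hour 0 libraries, shows the widest gap.

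The promoter letters were compared over genes. Of the 27525 genes tested, 16085 had at least 1 promoter window, with 1.247 windows a gene on average, and a gene was counted when any of its windows held the letters. The ISRE letters were found for 134 of 2020 genes that rose (6.634%), for 3.063% of genes that fell and for 3.509% of genes that did not change. Among genes that rose by at least 3 on the log2 scale the ISRE was found for 42 of 168 (25%), against 3.836% of all tested genes, and the kappaB letters for 11 of 168 (6.548%), against 1.66%. The GAS element TTCNNNGAA, bound by STAT dimers, was found for 21 of 168 (12.5%), against 8.809%. By list, the ISRE letters were found for 5 of 5 GBP genes, 5 of 6 immunity-related GTPases, 8 of 10 TRIM genes, 9 of 12 PYHIN genes and 7 of 10 IFIT and OAS genes. In other lists that rose the counts were 6 of 17 antiviral effectors, 4 of 15 class I genes, 1 of 6 antiviral PARPs, 1 of 6 immunoproteasome genes and 1 of 11 core proteasome genes. The kappaB letters were found for 3 of 4 neutrophil chemokines, none of which held the ISRE, but for 2 of 14 NF-kappaB pathway genes, 1 of 9 IL-6 family genes and 0 of 9 CC chemokine genes. Counted per window, over all 32851 windows in the table, the shares were 3.443% (ISRE), 1.467% (kappaB) and 8.298% (GAS). A match shows that the letters are there and no more, and genes without a window are not counted.

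Most genes of stress and cell death rose. Of 17 heat-shock genes 16 rose (median 1.48), and the chaperones Hspb1 (143 CPM at Day 1, 19.6 CPM at Hour 0) and Hsp90aa1 (1056 CPM at Day 1, 281 CPM at Hour 0) were among them. In the unfolded-protein-response list 14 of 19 rose and 2 fell. Mt2, a metal-binding metallothionein, had 651, 242 and 616 CPM at Day 1, against 19.7, 22.4 and 36.7 CPM at Hour 0 (log2 fold change 4.25), and its list of metal and oxidative-stress genes had 14 of 20 higher and 3 lower, with the ferritin chain Fth1 at 2578 CPM at Day 1 and 492 CPM at Hour 0. Of 23 cell-death genes 17 rose and 1 fell (median 1.77). Mlkl, the executor of necroptosis, had 205, 188 and 197 CPM at Day 1, against 20.3, 33.2 and 13.6 CPM at Hour 0 (3.15), and its kinase Ripk3 averaged 34.8 CPM at Day 1 against 3.40 CPM at Hour 0.

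Targets of p53 rose in 8 of 12 cases and fell in 1. Cdkn1a, which encodes the cell-cycle inhibitor p21, had 196, 67.3 and 182 CPM at Day 1, against 6.77, 8.04 and 10.2 CPM at Hour 0 (log2 fold change 4.15, adjusted p = 8.65e-12). Gdf15 had 61.1, 29.2 and 71.5 CPM at Day 1, against 0.387, 0.113 and 0.993 CPM at Hour 0 (6.64). All 8 that rose were lowest in replicate 14 among the Day 1 libraries. Of the proliferation genes Top2a fell by 1.67 and Mki67 fell by 1.10, while the replication licensing genes Mcm6, Mcm3 and Mcm2 rose by 1.59, 1.54 and 1.28. Over the cell-cycle list 9 of 29 rose and 5 fell, with 5 higher when Day 1 replicate 15 or Hour 0 replicate 10 was left out. The number lower was 3 without Day 1 replicate 13 and 1 in the fit of only the groups compared. The call for Mki67 was lost without Hour 0 replicate 12, in the fit of only the groups compared and with limma-voom.

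Biosynthesis and sugar metabolism rose as well. All 20 ribosome-biogenesis genes tested rose (median 1.36), led by Rrp12 at 2.3, and 53 of 79 cytosolic ribosomal protein genes rose with none lower (median 0.78). The number of ribosomal protein genes higher ran from 38 to 68 over the alternatives, and it was 67 without Day 1 replicate 14. In the glycolysis list 14 of 17 rose and 1 fell (median 1.51). Hk2, the inducible hexokinase, averaged 204 CPM at Day 1 and 36.5 CPM at Hour 0, and Pkm, the pyruvate kinase, averaged 656 CPM at Day 1 and 132 CPM at Hour 0. Respiratory-chain genes of the nucleus rose in 10 of 78 cases and fell in 2. In this fit the share that rose was near that of all genes and the share that fell was below it. The number higher was 6 without Day 1 replicate 13 and 18 with no filter on low counts, and the number lower ran from 0 to 3 over the alternatives. Of the 12 tested mitochondrially encoded genes 7 fell (median −1.57). Nos2, which makes nitric oxide, had 84.0, 96.1 and 70.6 CPM at Day 1, against 2.13, 0.793 and 4.22 CPM at Hour 0 (5.08), and Wars, a tryptophan tRNA ligase known to respond to interferon-gamma, rose by 3.37.

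Genes that mark resting fibroblasts fell in most cases. In the fibroblast identity list 17 of 27 fell and 2 rose (median −1.09), and in the resting fibroblast list 21 of 25 fell and 3 rose (median −2.15). Pdgfra, the growth-factor receptor used to mark fibroblasts, had 160, 180 and 207 CPM at Day 1, against 2088, 1855 and 1823 CPM at Hour 0, which is 10.5-fold higher at Hour 0 (log2 fold change −3.40 ± 0.19, adjusted p = 5.65e-14). Cd34, a marker of adventitial fibroblasts, had 26.0, 45.7 and 24.1 CPM at Day 1, against 376, 296 and 407 CPM at Hour 0 (−3.49). Neither gene's groups overlapped, and replicate 14 was the highest Day 1 library for Cd34. The identity genes that rose were Pdpn, the sorting marker, and Ly6a, which encodes the Sca-1 surface protein, with 618, 608 and 537 CPM at Day 1 and 84.4, 75.3 and 88.1 CPM at Hour 0 (2.83). Ly6a is also known as an interferon-induced gene. The summed level of the fibroblast markers was 15633, 12776 and 16443 CPM at Day 1 and 30963, 26155 and 27769 CPM at Hour 0.

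Of 44 collagen genes 29 fell and 3 rose (median −1.34). Col15a1 had 64.7, 54.6 and 101 CPM at Day 1, against 4113, 3526 and 3807 CPM at Hour 0 (log2 fold change −5.70 ± 0.27, adjusted p = 3.84e-15). Col6a6, a chain of microfibrillar collagen, had 27.9, 39.3 and 42.7 CPM at Day 1, against 720, 752 and 798 CPM at Hour 0 (−4.37). Smaller differences were measured for 2 fibrillar collagens. Col3a1 averaged 4925 CPM at Day 1 and 8675 CPM at Hour 0 (−0.82, adjusted p = 0.0122), and Col1a1 averaged 3237 CPM at Day 1 and 5063 CPM at Hour 0 (−0.65, adjusted p = 0.0297), a call lost without Day 1 replicate 13 or 14 or Hour 0 replicate 10, with library totals and in both fits of fewer groups. The collagens that rose were Col8a1, Col12a1 and Col18a1, at 2.00, 1.61 and 1.05.

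In the list of matrix glycoproteins 20 of 37 fell and 6 rose, and 9 rose without Day 1 replicate 14. Lamb1, a laminin chain, had 150, 88.7 and 168 CPM at Day 1, against 1934, 1711 and 1516 CPM at Hour 0 (log2 fold change −3.67), and Lama2, another, averaged 195 CPM at Day 1 against 2432 CPM at Hour 0 (−3.64). Tnc, the injury matrix protein tenascin-C, had 572, 67.1 and 818 CPM at Day 1, against 20.6, 24.8 and 37.8 CPM at Hour 0 (log2 fold change 4.13 ± 0.47, adjusted p = 4.44e-08). Replicate 14 was the low Day 1 library, though still above all Hour 0 libraries. Thbs1, Vcan, Spp1 and Ltbp2, all secreted matrix proteins, rose by 2.43, 2.35, 3.46 and 3.43.

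Proteases and their inhibitors moved in both directions. Mmp3 (stromelysin) had 4922, 1515 and 3715 CPM at Day 1, against 259, 234 and 194 CPM at Hour 0 (log2 fold change 3.88 ± 0.32, adjusted p = 1.27e-10), while Mmp2, the gelatinase of resting fibroblasts, had 470, 334 and 538 CPM at Day 1, against 1154, 1003 and 1127 CPM at Hour 0 (−1.29). Of 15 metalloproteinases 5 rose and 4 fell. Among the inhibitors Timp1 had 1035, 571 and 930 CPM at Day 1, against 5.32, 6.00 and 7.94 CPM at Hour 0 (7.03 ± 0.45, adjusted p = 6.45e-13). Timp2 averaged 229 CPM at Day 1 against 874 CPM at Hour 0, and Timp3 averaged 136 CPM at Day 1 against 481 CPM at Hour 0. In the TIMP and ADAMTS list 11 of 19 fell and 3 rose. Adamts12 fell by 3.93 and Adamts17 fell by 4.59. Of 12 plasminogen and coagulation genes 5 rose and 6 fell. The urokinase receptor Plaur averaged 59.1 CPM at Day 1 and 3.45 CPM at Hour 0 (4.08). Urokinase itself, Plau, averaged 62.0 CPM at Day 1 and 415 CPM at Hour 0 (−2.74). Has1, a hyaluronan synthase, averaged 174 CPM at Day 1 against 20.1 CPM at Hour 0.

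Many signals that pattern connective tissue fell. All 10 hedgehog pathway genes tested fell (median −2.16), with Gli2 at −3.40 and Gli1 at −2.11. Of 27 Wnt ligands and modulators 16 fell and none rose (median −1.28), including Wnt5a at −2.84 and the antagonist Sfrp4 at −2.95. In the Notch list 6 of 13 fell and 1 rose, and the target Heyl averaged 2.52 CPM at Day 1 and 53.1 CPM at Hour 0 (−4.39). The riser was Notch3, a receptor of mural cells, with 31.6 CPM at Day 1 and 13.7 CPM at Hour 0. In the TGF-beta and BMP list 16 of 31 fell and 5 rose. Gdf10 averaged 9.04 CPM at Day 1 and 152 CPM at Hour 0 (−4.06), whereas the secreted inhibitor Fstl3 rose by 3.38. Growth factors were mixed, with 6 of 27 higher and 7 lower: Vegfd averaged 70.9 CPM at Day 1 and 11.0 CPM at Hour 0, Igf1 averaged 23.6 CPM at Day 1 and 217 CPM at Hour 0, and Hgf averaged 12.4 CPM at Day 1 and 12.3 CPM at Hour 0 (adjusted p = 0.979). Axon guidance genes fell in 11 of 20 cases, Robo2 by 3.51, and 1 rose.

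The Day 1 libraries differed among themselves in a patterned way. Of the 2388 better-expressed genes that rose, replicate 14 was the lowest Day 1 library for 1529 and the highest for 484. Of the 2150 that fell, it was the highest for 1020 and the lowest for 609. Its correlation with the Hour 0 libraries was 0.696 to 0.705, against 0.643 to 0.673 for replicates 13 and 15, so it lay nearer to Hour 0 in general. The GBP genes that rose were highest in replicate 14 in 10 of 10 cases, the immunity-related GTPases in 7 of 7 and the class I genes in 12 of 19. The neutrophil chemokines that rose were lowest there in 4 of 4 cases, the metalloproteinases in 5 of 5, the plasminogen genes in 5 of 5, the ribosome-biogenesis genes in 20 of 20 and the ribosomal proteins in 51 of 53. As medians of log2 deviation from the Day 1 mean, the 17 GBP and immunity-related GTPase genes stood at −0.20, 0.73 and −0.53 in replicates 13, 14 and 15, the 33 IFIT, OAS and antiviral genes at 0.08, −0.13 and 0.04, the 11 neutrophil chemokine and IL-6 family genes at 0.45, −0.63 and 0.18, and the 13 protease and plasminogen genes at 0.53, −0.87 and 0.36. Replicate 14 also had the highest share of receptor-gene background at Day 1 (0.0646%), and the part of that background in the pattern was not tested.

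**Figure D4:**
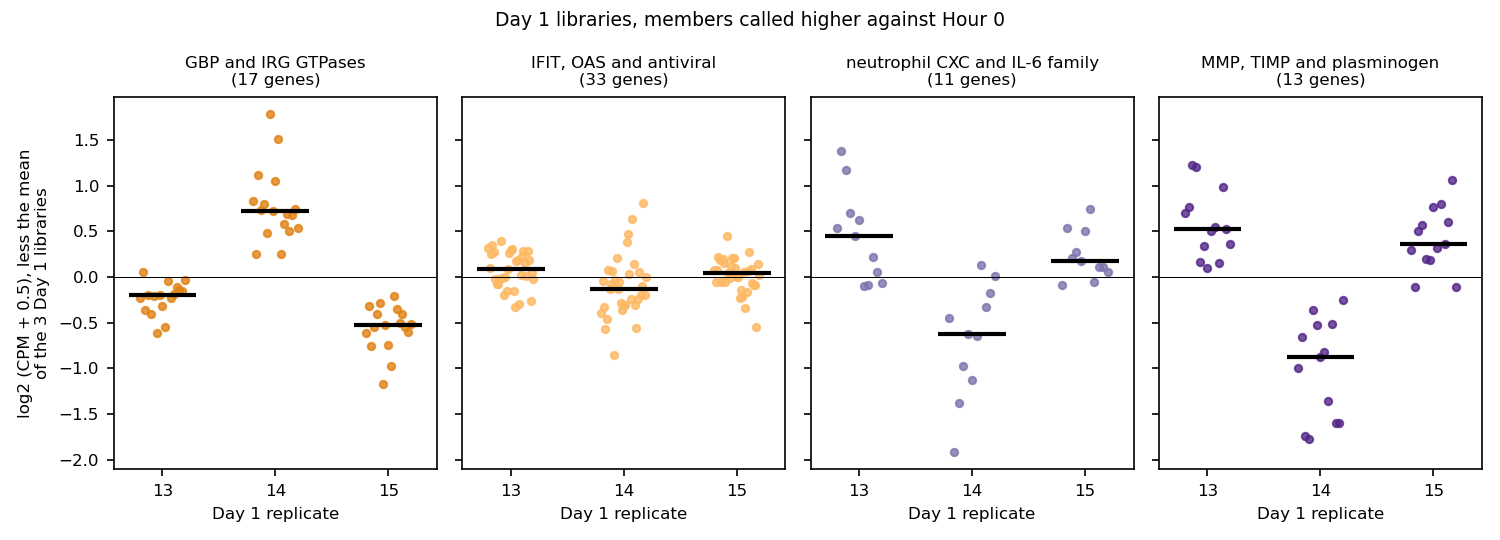
For 4 groups of genes called higher at Day 1, each gene's log2 CPM in Day 1 replicates 13, 14 and 15 less its mean over the 3 libraries (y axis), with the median as a black bar. The GBP and immunity-related GTPase genes are highest in replicate 14 (median 0.73) and the protease genes lowest there (−0.87), while the IFIT, OAS and antiviral genes lie near 0 in all 3 libraries.

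Markers of other cells in the gland were lower at Day 1 in several lists, and their part in the falls above was not tested. Of 13 contractile genes 9 fell and 1 rose. Myh11, the smooth-muscle myosin heavy chain, had 3.70, 5.75 and 2.77 CPM at Day 1, against 900, 670 and 474 CPM at Hour 0 (log2 fold change −7.39 ± 0.47, adjusted p = 7.44e-13), and Acta2 averaged 6.49 CPM at Day 1 against 212 CPM at Hour 0. Tpm2 averaged 132 CPM at Day 1 against 139 CPM at Hour 0 and Des rose (53.1 CPM at Day 1 against 23.0 CPM at Hour 0), and the summed contractile level was 502, 648 and 523 CPM at Day 1 and 2354, 1862 and 1454 CPM at Hour 0. Of 9 pericyte genes 7 fell and 1 rose, with Abcc9, a potassium-channel subunit, at 5.07, 4.35 and 5.53 CPM at Day 1 and 148, 167 and 200 CPM at Hour 0. All 9 glial genes tested fell, and the Schwann cell factor Sox10 averaged 6.60 CPM at Day 1 and 54.4 CPM at Hour 0.

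Secretory genes of the gland were measured in a stromal sort, and they differed by group. Of 15 acinar genes 10 fell and of 20 duct genes 12 fell, with no rise in either list. Mucl2, a secreted mucin-like protein, had 2911, 2173 and 2665 CPM at Day 1, against 29182, 47320 and 66438 CPM at Hour 0 (log2 fold change −4.21 ± 0.52, adjusted p = 1.95e-07). The summed acinar level was 3466, 2599 and 3249 CPM at Day 1 and 33592, 54582 and 76200 CPM at Hour 0, and Mucl2 made up most of it. Klk1b9, a glandular kallikrein, had 3 counts over the Day 1 libraries and 512 over the Hour 0 libraries, a ratio of 204 in favour of Hour 0 (95% counting interval 69.3 to 990). Egf, made by duct cells, averaged 3.40 CPM at Day 1 and 157 CPM at Hour 0. Of 17 epithelial genes 8 fell and 1 rose, and Epcam averaged 20.3 CPM at Day 1 and 32.5 CPM at Hour 0 (adjusted p = 0.165). It passed as lower without Day 1 replicate 15 (−1.21, adjusted p = 0.0185) or Hour 0 replicate 10 (adjusted p = 0.041).

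Immune-cell markers were low in both groups. Macrophage markers summed to 29.0 to 39.8 CPM at Day 1 and 32.7 to 60.9 CPM at Hour 0, neutrophil markers to 6.73 to 16.9 CPM at Day 1 and 9.77 to 17.6 CPM at Hour 0, and T and NK cell markers to 12.6 to 18.2 CPM at Day 1 and 14.0 to 22.8 CPM at Hour 0. The groups overlapped for these 3 sums. They did not overlap for dendritic cell markers, which summed to at most 56.1 CPM at Day 1 and at least 69.8 CPM at Hour 0. Of 6 dendritic genes tested 1 fell and none rose. Ptprc also fell, with no overlap (log2 fold change −1.47, adjusted p = 0.00411). Its call was lost without Hour 0 replicate 11, in the fit of only the groups compared and with limma-voom. Of 17 macrophage genes 1 rose (Cd14) and 1 fell, and the gene that fell was Ptprc itself, a member of that list. The call for Cd14 was lost without Day 1 replicate 13 or Hour 0 replicate 10 or 11, in the fits of fewer groups and with limma-voom. Of 9 neutrophil genes none changed, and the neutrophil marker S100a8 averaged 0.913 CPM at Day 1 and 1.06 CPM at Hour 0. Of 17 T and NK genes 1 rose and 1 fell, and Trbc2 and Gzma had no count at Hour 0. The riser, Gzma, had 24 counts over the Day 1 libraries, and its call was lost without Day 1 replicate 13 or any Hour 0 library. Trbc2 did not pass, though it passed as higher without Day 1 replicate 13 or 14 and with no filter on low counts. Blood endothelial genes summed higher at Day 1 (245 to 316 CPM at Day 1 against 101 to 109 CPM at Hour 0) through Flt1, a receptor for VEGF, at 209, 190 and 271 CPM at Day 1 against 7.16, 9.52 and 6.45 CPM at Hour 0, while Pecam1 fell (2.12 CPM at Day 1 against 7.69 CPM at Hour 0) and Cldn5 had no count in either group.

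**Figure D5:**
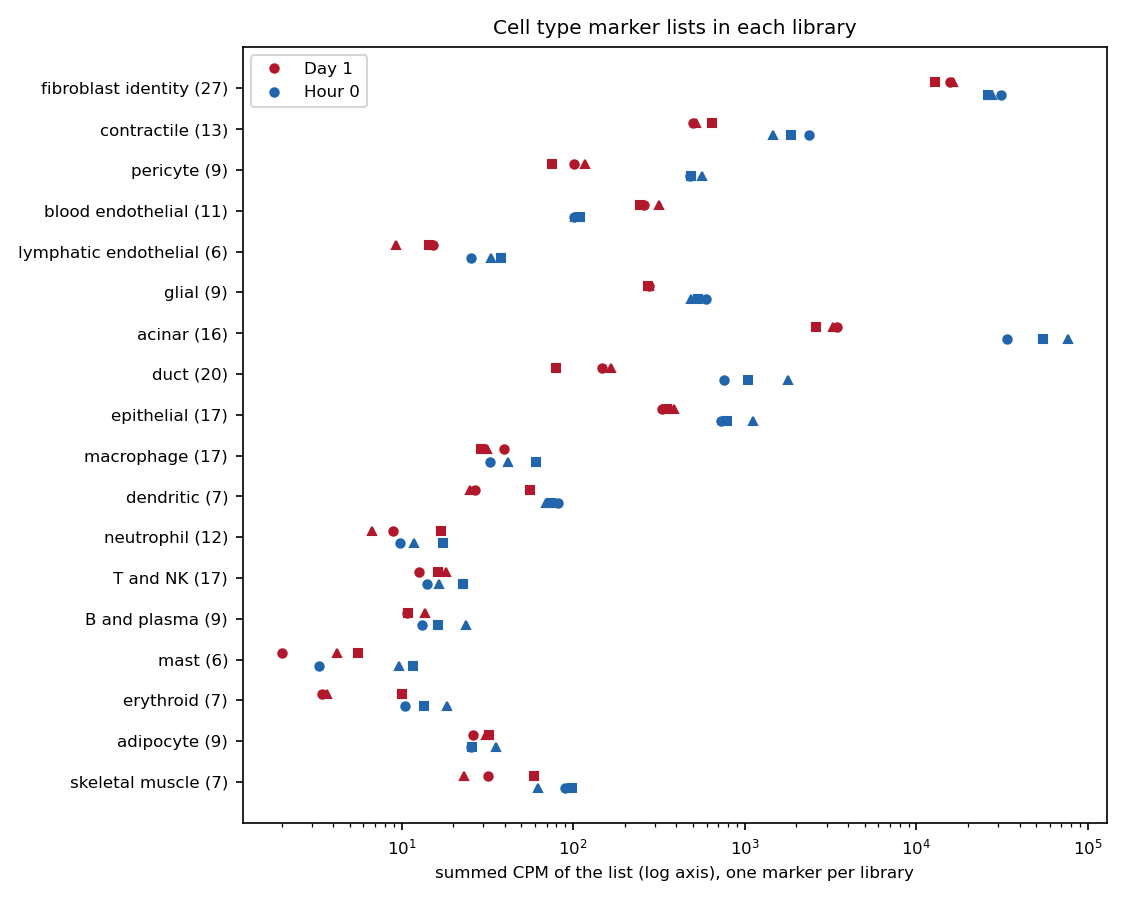
Summed CPM of each cell-type marker list (number of matched genes in brackets) in each library, on a log axis, with Day 1 in red above Hour 0 in blue and 1 marker per library. Acinar markers lie at 2599 to 3466 CPM in Day 1 libraries and 33592 to 76200 CPM in Hour 0 libraries. Macrophage and neutrophil sums overlap between the groups, and dendritic sums do not.

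Against Day 2 (replicates 16, 17 and 18; same virus and strain), 3076 genes (11.2%) were higher and 3312 (12.0%) lower at Day 1, 23.2% in all. The split had no fixed direction: 48.2% of changed genes were higher at Day 1 with TMM, 29.0% with DESeq2 size factors and 22.1% with library totals (medians over all genes tested −0.78, −0.98 and −1.05), but 65.7% with no filter on low counts and 55.7% in the fit of these groups alone. Leaving out 1 library gave 42.8% (without Day 1 replicate 14) to 59.3% (without Day 2 replicate 18) higher, and as few as 1611 genes lower (without Day 2 replicate 17). The Day 2 libraries also stood apart in background: receptor genes held 0.171% to 0.186% of their counts, against 0.0307% to 0.0646% at Day 1. The Day 1 libraries enter both this comparison and that with Hour 0, so the comparisons are not independent. Several of the induced genes were higher at Day 1 than a day later: Saa3 averaged 2278 ± 887 CPM at Day 1 and 551 ± 228 CPM at Day 2 (SD, n = 3 each; log2 fold change 2.05, adjusted p = 8.87e-05), Gbp2 differed by 1.75 and Cxcl13 by 2.44 (494 ± 145 CPM at Day 1 and 91.2 ± 25.4 CPM at Day 2). Isg15 did not pass (202 CPM at Day 1 and 135 CPM at Day 2, adjusted p = 0.0718), though it did in 4 alternatives, among them without Day 1 replicate 14 (0.74, adjusted p = 0.0304). Il6 was lower at Day 1, with 131 ± 45.8 CPM at Day 1 and 314 ± 155 CPM at Day 2 (−1.26, adjusted p = 0.045). The Il6 call was lost without any one of the Day 1 libraries, without Day 2 replicate 16 or 17, and with DESeq2. Some genes that had fallen against Hour 0 were also lower at Day 1 than at Day 2, and the part of the higher Day 2 background in these differences was not tested. Pdgfra averaged 182 CPM at Day 1 and 422 CPM at Day 2 (−1.21), Col15a1 averaged 73.5 CPM at Day 1 and 404 CPM at Day 2 (−2.46), and Cxcl12 averaged 68.7 CPM at Day 1 and 337 CPM at Day 2 (−2.29). By the naming rule the largest differences were Klk1, Coch, Scgb2b26 and Scgb1b27 (higher at Day 1 by 5.50, 3.69, 3.44 and 3.38) and Aatk, Foxd3, Sema4f and Klk9 (log2 fold changes −5.98, −5.86, −4.83 and −4.71). The calls for Klk1, Scgb2b26 and Scgb1b27 were lost with limma-voom (adjusted p = 0.179, 0.253 and 0.259). Klk1 and the secretoglobins encode salivary secretory products.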

How the data were processed

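The deposited values are raw read counts per Ensembl gene in each library. Per the submitters' processing notes, FastQC, STAR, Subread, DESeq2 and genome build mm10 were used, and their versions, annotation release, strand setting and treatment of reads with several matches are not given in the sources used here. Gene names, positions and exon lengths came from GENCODE M21 (GRCm38), to which 55141 of 55401 identifiers matched, the other 260 holding 0.0241% of counts. Promoters came from RefSeq.

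The quasi-likelihood test of edgeR 4.0.16, run in R 4.3.3 on all 18 libraries, followed filterByExpr (minimum count 10, minimum total 15, which left 27525 genes) and TMM scaling. "Rose" and "fell" mean a Benjamini-Hochberg adjusted p under 0.05 over all genes tested. CPM values are TMM-scaled, standard errors are edgeR's, and intervals of count ratios hold counting error alone, because without molecular identifiers 2 reads may copy 1 molecule. Shares of counts were compared by exact permutation tests (scipy 1.17.1). Each library is labelled as its own mouse.

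The comparison, gene lists and naming rule were chosen with earlier results of these data known. The rule names the 12 largest rises and falls whose groups do not overlap and whose higher group averages at least 10 CPM, leaving out predicted genes, and up to 5 members of each list, plus members that did not pass, given by value. For Day 2 it takes the 4 largest in each direction. B2m, Mx1, Rsad2, Ifi27, Irf1, Irf4, Irf9, Mavs, Nfkbia, Nfkb2, Relb, Serpina3n, Plau, Timp2, Timp3, Col8a1, Col12a1, Col18a1, Ltbp2, Spp1, Thbs1, Vcan, Notch3, Des, Cd14, Gzma and the genes compared with Day 2 besides those were named after their values were seen. Alternatives were other scalings, filters, tools (DESeq2 1.42.0, limma 3.58.1 with voom) and sets of libraries, and leaving out each library. Some genes of these lists are not reported here by name.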

Additional observations from a re-analysis of the deposited data

How the results depend on the processing

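The comparison of Day 1 with Hour 0 kept both counts within 1.5 times (2662 higher, 3531 lower) under every alternative run, except that 2312 genes were lower in a fit of only the groups compared and 5545 with limma-voom. Leaving out 1 library gave 2125 to 2772 higher, 2673 to 3851 lower and 4811 to 6623 changed. Which direction held the majority was not fixed: 43.0% of changed genes were higher, but 54.0% with no filter on low counts, 53.8% in the fit of only the groups compared, 51.3% in the fit of Hour 0, Day 1 and Day 2, and 50.1% at 5 CPM or more in 3 libraries. Of 423 named genes in 6323 pairs of gene and alternative, 6182 stayed on the same side of the threshold, 130 lost the call, 11 gained it and 0 changed direction with a call. Among list counts, those of 0 to 2 members often moved. Against Day 2 (3076 higher, 3312 lower, 6388 changed), 1901 were higher with DESeq2, 4870 with no filter, 4715 in the fit of only the groups compared, 1675 with DESeq2 size factors and 1270 with library totals. With limma-voom 10055 were lower and 13496 changed. Leaving out 1 library gave 1879 to 3312 higher, 1611 to 4433 lower and 3490 to 7745 changed, the last and highest without Day 1 replicate 14. The causes were not tested. No paired analysis was possible because the groups share no replicate numbers. Fits that leave a group 2 libraries rest on a spread pooled over all groups. Depth limits genes under about 1 CPM, where few counts stand behind a fold.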

Other observations

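Of 17 circadian clock genes 4 rose, 3 fell and 10 did not pass, and the number higher was 2 without Hour 0 replicate 10 and 8 with no filter on low counts. Npas2, an activator of the circadian loop, had 8.05, 6.27 and 9.49 CPM at Day 1, against 128, 97.6 and 96.2 CPM at Hour 0 (log2 fold change −3.75 ± 0.21 (SE), adjusted p = 3.55e-14), and Arntl, its partner, averaged 23.9 CPM at Day 1 and 87.9 CPM at Hour 0 (−1.87). Dbp, an output gene that the activators drive, had 25.7, 82.9 and 25.3 CPM at Day 1, against 12.9, 9.40 and 10.7 CPM at Hour 0 (2.02), and the repressor Per2 averaged 36.0 CPM at Day 1 and 13.4 CPM at Hour 0 (1.42). The time of day of collection is not given in the sources used here, so it and the group cannot be told apart. Of 9 glucocorticoid genes 4 rose and 2 fell (median −0.03), with 1 lower without Day 1 replicate 14 or Hour 0 replicate 10 or 11, and 4 lower when genes under 10 times the receptor-gene rate were left out. Zbtb16 (99.1 ± 3.57 CPM at Day 1, 22.7 ± 7.88 CPM at Hour 0; SD, n = 3 each) and Fkbp5 (80.5 ± 8.60 CPM at Day 1, 34.8 ± 5.49 CPM at Hour 0) rose while the receptor Nr3c1 fell (114 ± 20.1 CPM at Day 1, 272 ± 12.5 CPM at Hour 0). In the list of cholesterol synthesis 9 of 21 fell and none rose (median −0.84).

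Of 23 immediate-early factors 5 rose, 5 fell and 13 did not pass (median 0.02). Those lower numbered 2 without Hour 0 replicate 12, and 3 without Day 1 replicate 13 or 15, with library totals and in the fit of Hour 0, Day 1 and Day 2. Fosl1 had 120, 47.2 and 143 CPM at Day 1, against 2.03, 4.98 and 9.43 CPM at Hour 0 (log2 fold change 4.22), and Myc averaged 100 CPM at Day 1 against 21 CPM at Hour 0 (2.26), whereas Jun fell by 0.94 and Fos fell by 0.62. The call for Fos was lost without Day 1 replicate 13 or 15 or Hour 0 replicate 10 or 12. It was lost too with library totals, with no filter on low counts and in the fit of Hour 0, Day 1 and Day 2. Ptgs2, the inducible cyclooxygenase, had 437, 304 and 442 CPM at Day 1, against 15.3, 23.3 and 39.8 CPM at Hour 0 (3.91), and the prostaglandin receptor Ptger3 fell by 3.75. Of 7 host genes for adenovirus attachment and entry none rose and 5 fell, with 3 lower when Day 1 replicate 15 or any Hour 0 library was left out. The attachment receptor Cxadr averaged 23.5 CPM at Day 1 and 24.2 CPM at Hour 0 (adjusted p = 0.936), and the integrin chain Itgb5 had 35.0, 35.8 and 34.8 CPM at Day 1 against 341, 260 and 313 CPM at Hour 0 (−3.11, adjusted p = 1.34e-13). Among genes that write or erase H3K27 methylation 2 of 13 rose and 2 fell by the test, near the shares of all genes (9.67% and 12.8%). Over the alternatives 1 to 3 were higher and 1 to 2 lower. Ezh2 fell, a call lost without Day 1 replicate 14 or 15, with no filter on low counts and in both fits of fewer groups. Eed rose, a call lost without Day 1 replicate 13 or 14 or any Hour 0 library. It was lost too when genes under 10 times the receptor-gene rate were left out. Kdm6b, the demethylase named in the title of the study, had 264, 249 and 339 CPM at Day 1 and 216, 214 and 255 CPM at Hour 0 (0.31, adjusted p = 0.319), and of the alternatives run it passed in 1, with no filter on low counts (0.50, adjusted p = 0.0416). Kdm6a averaged 45.7 CPM at Day 1 and 48.0 CPM at Hour 0, and the Polycomb cofactors Jarid2 and Aebp2 differed by −1.70 and 1.5.

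Members of 12 genomic clusters of gene families were counted, with no test. In the Gbp cluster at chr5:105014150-105346472 (GRCm38) 6 of 6 tested members rose, and in that at chr3:142493978-142669041 there were 4 of 6. In the Ifi200 cluster at chr1:173350879-174031810 there were 11 of 14 higher members and 1 of 5 higher among the other genes between them. Members rose in 7 of 10 cases in the Slfn cluster, 5 of 6 in the Ifit, 5 of 10 in the Oas, 4 of 5 in the Cxcl, 3 of 3 from Cxcl9 to Cxcl11, 3 of 4 in the Saa and 4 of 13 in the Serpina3 cluster. In the Ccl cluster, at chr11:82035571-83664683, 5 of 10 rose, and so did 12 of the 36 other genes between them. The Slfn cluster (chr11:82942341-83286726) lies inside that interval, so those other genes include the Slfn members already counted. In the Klk1b cluster at chr7:43712567-44229618 there were 11 of 21 lower members and 2 of 11 lower among the others. Members of these families resemble each other, so reads may be shared among them. Genes that rose were shorter than those that fell: among the 9599 better-expressed genes the median exon length was 3.99 kb for the 2388 that rose, 6.15 kb for the 2150 that fell and 5.15 kb for the 5061 that did not change. The part of length in the calls was not tested.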
